A study of Homo sapiens with 36 samples.

Results

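The Hippo kinases and the proteins that hold the co-activators YAP and TAZ in check were followed as mRNA in a human breast epithelial line and a human breast cancer line after knockdown of YAP, TAZ, TEAD, STAT3 or JUNB. The members are 10 genes picked by name: the kinases LATS1, LATS2, STK3 and STK4, the adaptor SAV1, the upstream regulator NF2, the angiomotins AMOT, AMOTL1 and AMOTL2, and the LIM protein AJUBA. They are 10 of the 60725 Ensembl genes in the deposited tables, and all 10 were found by symbol. The choice was by name and not by a measured value, but earlier results of these data were known when it was made.

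RNA was sequenced from 36 libraries in 18 groups of 2. MCF-10A ER-Src (here ER-Src) is an immortal, non-transformed mammary epithelial line with a fusion of v-Src and the estrogen receptor. Tamoxifen (TAM) switches this kinase on, and ethanol (ETH) is the vehicle. The labels name AZD0530, an inhibitor of Src kinases, next to tamoxifen among the agents used for induction. Each of the 2 treatments was combined with 5 siRNAs, which gave 10 groups: YAPi, TAZi, STAT3i and JUNBi, each named for its target, and the control Ctrli. MDA-MB-231 is a triple-negative breast cancer line, and its libraries bear 2 experiment names in the titles. Set 1 held Ctrli, YAPi, TAZi, the combined knockdown YAPi_TAZi and TEADi, which is directed at the TEAD family, and set 2 held its own Ctrli, JUNBi and STAT3i. Each siRNA was a commercial pool, and both cell lines are single established lines. The methods of the study name a short and a long time under TAM after transfection and do not say which held for the RNA samples. Nothing in the labels says that the 2 libraries of a group came from separate cultures, so the p-values measure the spread between libraries, which may be technical.

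In the Hippo pathway, STK3 and STK4 (MST2 and MST1), with the adaptor SAV1, phosphorylate LATS1 and LATS2, and these phosphorylate YAP and TAZ, which are then kept in the cytoplasm or degraded. NF2 (merlin) brings LATS kinases to the membrane, the angiomotins bind YAP and can activate LATS, and AJUBA binds LATS and holds it back from YAP at cell junctions. When the pathway is off, YAP and TAZ enter the nucleus and bind DNA through TEAD factors. LATS2, AMOTL2 and AJUBA are also known as transcriptional targets of YAP/TAZ in various cells, which is the feedback the knockdowns could show.

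TEAD factors recognise CATTCC, or GGAATG on the other strand. RefSeq promoter windows (GRCh38.p14, 250 bases before to 50 after a start) were held for 9 of the 10 members, 13 windows in all, and the motif lay in a window of 3 of them, AMOTL2, AJUBA and LATS2. For comparison, 14.0% of the 35116 windows of all genes and 16.7% of the 27305 genes held it on either strand. The stretches are shown because these 3 genes carry most of the differences described here. Each is written 5′ to 3′ on the gene's own strand, with the motif in capitals.
AMOTL2: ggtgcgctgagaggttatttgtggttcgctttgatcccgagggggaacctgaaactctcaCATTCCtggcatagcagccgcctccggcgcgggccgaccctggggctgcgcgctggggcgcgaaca
AJUBA: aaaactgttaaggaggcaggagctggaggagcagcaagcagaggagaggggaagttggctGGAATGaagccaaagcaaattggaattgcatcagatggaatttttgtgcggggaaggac
LATS2: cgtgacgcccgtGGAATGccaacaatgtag
The AMOTL2 stretch is chr3:134374451-134374576, minus strand, and its motif starts at position -69 from a start that lies within the annotated gene. The AJUBA stretch is chr14:22976843-22976961, minus strand, with the motif at position -59, again from a start inside the gene. The other window of AMOTL2 and that of AJUBA, at or near the annotated gene start, did not hold the motif. The LATS2 stretch is chr13:21061560-21061589, minus strand, with the motif at position 10 from the start. A match of letters is a description of the sequence and no measurement of binding.

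Total expected counts, which are the reads RSEM assigned to genes, ran from 6419720 to 19161700 in ER-Src and from 7290499 to 18076158 in MDA-MB-231 set 2. In set 1 the Ctrli libraries held 13456784 and 13534560, against 1411304 to 2784605 in the 8 knockdown libraries. A group of 7 RNAs without a poly(A) tail took 8.71% to 11.8% of the reads in the set 1 knockdowns but 0.00278% and 0.00407% in their Ctrli, so knockdown and library type cannot be told apart in any comparison of set 1 with its Ctrli. Among the set 1 knockdowns, RSEM's effective length fell short of gene length by 48.0 bases in replicate 1 and 74.6 in replicate 2. The replicate number thus follows this shortfall. YAP1 was lower in all YAPi comparisons (log2 fold change -2.49 in TAM, -2.38 in ETH, -2.63 in set 1), and so was WWTR1, which encodes TAZ, in TAZi (-2.22, -1.86 and -4.90). STAT3 in STAT3i differed by -2.66, -1.88 and, in set 2, -2.41. JUNB in JUNBi differed by -2.03 in TAM and -2.04 in set 2, but by -1.16 with an adjusted p of 0.064 in ETH. JUNB was also lower in STAT3i under TAM (-2.41), and stood at -0.24 in STAT3i under ETH and at -0.35 in set 2. In TEADi, TEAD1 (-0.82), TEAD2 (-4.30) and TEAD4 (-6.34) were lower than in Ctrli, and TEAD3 was lower than Ctrli in all 4 set 1 knockdowns (-1.62 to -1.24). TEAD4 was also lower than Ctrli in YAPi (-1.38), TAZi (-1.36) and YAPi_TAZi (-2.05), and TEAD2 in TAZi (-1.17) and YAPi_TAZi (-0.97). WWTR1 was lower than Ctrli in YAPi (-1.14) and TEADi (-0.89) as well. The summed level of 5 epithelial markers was 1106 to 3088 TPM in ER-Src and 4.26 to 18.2 TPM in MDA-MB-231, where CDH1, KRT5, KRT14 and TP63 had a median of 0. KRT5, however, stood at 5.99 to 11.5 TPM in replicate 1 of all 4 set 1 knockdowns and at 0 in replicate 2 of each. The replicate 1 libraries thus stood apart in an ER-Src marker as well as in effective length. The summed level of 3 mesenchymal markers was 232 to 378 TPM in ER-Src and 392 to 2880 TPM in MDA-MB-231, most of it VIM. ZEB1, at 2.37 to 5.74 TPM in ER-Src, was higher in set 1 (6.57 to 23.4) but lower in set 2 (0.82 to 1.44). FN1 overlapped, with a median of 37.7 TPM in ER-Src (22.6 to 87.0) and 23.6 TPM in MDA-MB-231 (10.2 to 275).

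The 10 genes were not expressed alike. In ER-Src the angiomotin AMOTL2 was highest (19.2 ± 3.77 TPM, SD, n = 20 libraries), followed by NF2 (17.2 ± 4.37) and AJUBA (13.8 ± 6.83). AMOTL1 stood at 7.65 ± 2.04, SAV1 at 6.12 ± 2.18, STK3 at 5.59 ± 1.96 and STK4 at 5.17 ± 1.28 TPM. The LATS kinases were lower, LATS2 at 2.78 ± 0.769 and LATS1 at 2.17 ± 0.41 TPM, and AMOT was close to 0 (0.0745 ± 0.0572 TPM, 0 to 24 reads per library). Neighbours in this order often crossed: AMOTL2 exceeded NF2 in 14 of the 20 libraries, SAV1 exceeded STK3 in 13, and STK3 exceeded STK4 in 13. LATS2 exceeded LATS1 in 17, and STK4 exceeded LATS2 in all 20.

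The order differed in MDA-MB-231, although its 2 sets of controls did not share a scale. AJUBA was highest in the Ctrli of set 1 (58.0 ± 4.09 TPM, n = 2), above SAV1 (33.8 ± 3.24) and AMOTL2 (33.3 ± 3.38), which crossed. In the Ctrli of set 2 SAV1 led (12.6 ± 1.67), above AJUBA (8.11 ± 3.96). NF2 ranked second in ER-Src but stood at 3.62 ± 0.884 TPM in set 1 and 2.67 ± 0.262 TPM in set 2. LATS1 was at 5.09 ± 0.438 TPM in the Ctrli of set 1 and at 0.395 ± 0.0919 TPM in those of set 2, which shows how far the 2 sets of the same line lay apart. The 2 lines were not compared by a test, since library type differed between ER-Src and the MDA-MB-231 controls. The 7 RNAs without a poly(A) tail took 9.43% to 11.7% of reads in ER-Src, against 0.00278% to 0.00915% in the Ctrli of both sets. Of the MDA-MB-231 libraries, only the set 1 knockdowns held a share like that of ER-Src.

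**Figure D1:**
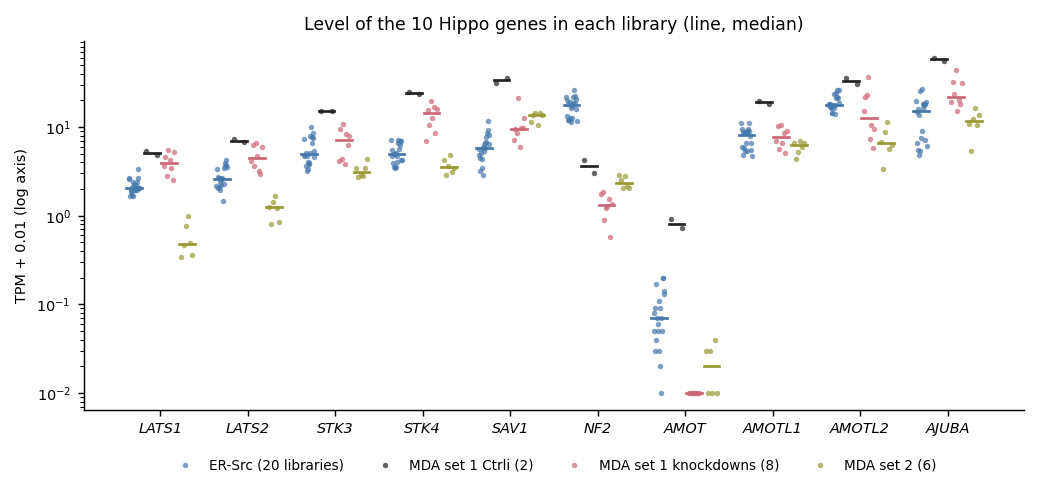
Levels of the 10 genes in TPM + 0.01 on a log axis, with 1 point per library and a bar at the median, for ER-Src (20 libraries), Ctrli of MDA-MB-231 set 1 (2), knockdowns of set 1 (8) and set 2 (6). AMOT lies near 0 except in the Ctrli of set 1 (0.71 and 0.9 TPM), and NF2 lies higher in every ER-Src library (11.3 to 26.5 TPM) than in any MDA-MB-231 library (0.56 to 4.25 TPM).

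The first question was how these genes differed between TAM and ETH. The contrast compares whole treatments, so v-Src, tamoxifen itself and any AZD0530 given with it cannot be told apart. In Ctrli cells AJUBA fell to 0.427 of its level in vehicle, while LATS2 and AMOTL2 rose 1.87-fold and 1.45-fold by counts, and these were 3 of the 9 members that received an adjusted p (6.21% of the 15724 genes tested were called, a call being a DESeq2 adjusted p under 0.01). When all 5 siRNAs were fitted together, 5 of 10 members were called (background 12.6%): AJUBA, NF2 and AMOTL1 fell and LATS2 and STK3 rose. The median log2 fold change of the members was 0.08 in Ctrli and 0.07 over the 5 siRNAs, against -0.01 and -0.02 for all genes tested.

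AJUBA (ENSG00000129474.15, chr14:22971177-22982551, minus strand) had normalised read counts of 1269 and 1242 in the 2 Ctrli ETH libraries and of 544 and 518 in the 2 Ctrli TAM libraries. Normalised counts are expected counts divided by a size factor per library, within 1 cell line and set. The log2 fold change was -1.23 (SE 0.15, adjusted p 3.3e-14), and it stayed between -1.28 and -1.19 when any 1 library was left out. Its TPM fell as well, from 19.7 and 14.9 to 6.6 and 5.45. AJUBA counts were lower in both TAM libraries than in both ETH libraries for each of the 5 siRNAs. The log2 ratios of the means were -1.24 in Ctrli, -1.44 in YAPi, -1.43 in TAZi and -1.55 in JUNBi, but -0.23 in STAT3i. Over the 5 siRNAs the change was -1.18 (SE 0.13, adjusted p 3.3e-17), with -1.28 to -1.12 on leaving out 1 of the 20 libraries.

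LATS2 (ENSG00000150457.8, chr13:20973036-21061586, minus strand), the kinase that acts directly on YAP and TAZ, had normalised counts of 283 and 246 in Ctrli ETH and 492 and 487 in Ctrli TAM. Its TPM went from 2.14 and 2.06 to 3.32 and 2.73. The groups did not overlap on either scale and the log2 fold change was 0.90 (SE 0.21, adjusted p 0.00057), although leaving out any of the 4 libraries ended the call at values of 0.79 to 1.0, as did the replicate number as a block (adjusted p 0.028) and offsets for the effective length of the gene (0.80, adjusted p 0.011). Over all 5 siRNAs LATS2 rose by 0.55 on the log2 scale (SE 0.10, adjusted p 1.6e-06), a call that held without each of the 20 libraries in turn. Both TAM libraries exceeded both ETH libraries under every siRNA, by log2 ratios of 0.95 for STAT3i, 0.89 for Ctrli, 0.49 for YAPi, 0.25 for TAZi and 0.20 for JUNBi. The smallest difference was in JUNBi, where ETH libraries already held 444 and 549 counts and TAM libraries 554 and 587. LATS1, its paralogue, did not pass the test (0.42, SE 0.25, adjusted p 0.46 in Ctrli, and 0.14, adjusted p 0.27 over the siRNAs).

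AMOTL2 (ENSG00000114019.14, chr3:134355347-134375479, minus strand) moved by counts and not by TPM in Ctrli. Its normalised counts were 1380 and 1406 in Ctrli ETH and 1870 and 2137 in Ctrli TAM, a log2 fold change of 0.53 (SE 0.13, adjusted p 0.00052). Its TPM did not move with them: 18.1 and 17.3 in ETH, 17.8 and 18.4 in TAM. The mean effective length that RSEM gave the gene was 2814 bases in Ctrli ETH and 3491 in Ctrli TAM, and with effective lengths as offsets the difference was 0.31 (adjusted p 0.2). Over all genes, effective lengths in the 2 Ctrli ETH libraries lay below those of the other ER-Src libraries (median log2 deviation -0.128 and -0.135, against -0.103 to 0.074), and their part in the AMOTL2 counts was not tested. The call also ended when any of the 4 libraries was left out (0.44 to 0.62) and with the replicate block (adjusted p 0.01), and over the 5 siRNAs AMOTL2 was not called (0.26, adjusted p 0.084).

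NF2 and AMOTL1 were lower under TAM by smaller amounts. NF2 (ENSG00000186575.17, chr22:29603556-29698598, plus strand) had 1776 and 1830 normalised counts in Ctrli ETH and 1487 and 1574 in Ctrli TAM, and over the 5 siRNAs it fell by 0.35 on the log2 scale (SE 0.08, adjusted p 0.00013). The libraries overlapped only in STAT3i, where ETH held 1510 and 2160 and TAM 1324 and 1714. AMOTL1 (ENSG00000166025.17, chr11:94706431-94876748, plus strand) had 1462 and 1536 counts in Ctrli ETH against 1201 and 1160 in Ctrli TAM, and fell by 0.31 over the siRNAs (SE 0.05, adjusted p 2.4e-07), again with an overlap in STAT3i alone. In Ctrli by itself neither NF2 (-0.23) nor AMOTL1 (-0.33) was called, and both calls over the siRNAs held without each library in turn (-0.39 to -0.31 and -0.33 to -0.28). Of the MST kinases, STK3 was called over the siRNAs (0.26, SE 0.08, adjusted p 0.0083) and lost the call without any 1 of 14 of the 20 libraries (0.24 to 0.30). Its counts separated in YAPi, at 170 and 174 in ETH against 232 and 217 in TAM, and in TAZi, at 173 and 176 against 238 and 234. STK4 (-0.05) and SAV1 (0.00) gave no call. AMOT, at 0 to 24 reads per library, had a log2 fold change of 1.12 (SE 0.36, adjusted p 0.012).

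**Figure D2:**
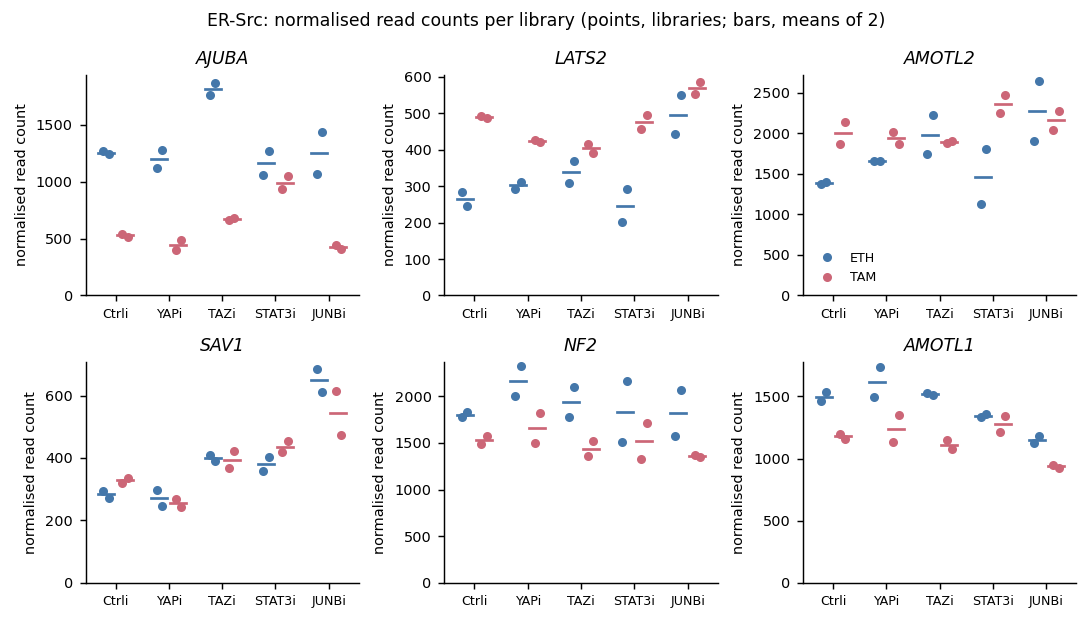
Normalised read counts of 6 genes in ER-Src by siRNA, with 1 point per library and a bar at the mean of 2, blue for ETH and red for TAM. AJUBA is low under TAM in every siRNA except STAT3i (936 and 1049 counts), LATS2 is higher under TAM throughout, and SAV1 is highest in JUNBi.

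The next question was whether loss of YAP or TAZ changed these upstream genes, most of which restrain YAP and TAZ while AJUBA holds back LATS. In ER-Src few members were called. Under TAM it was none of the 10 for YAPi and none of 9 for TAZi, against 10.7% and 3.42% of all genes. With so few members, a count of 0 says little next to these shares. Under ETH none of 9 was called for YAPi (background 11.6%), and AJUBA and AMOTL2 rose in TAZi (5.24%). Both treatments together gave no call for YAPi (23.4%), with a lowest adjusted p of 0.096 for NF2, and AJUBA for TAZi (9.16%). At an unadjusted p under 0.05, NF2 and AMOTL2 (0.25 each) passed for YAPi under ETH, NF2 (0.19) for YAPi over both treatments, AJUBA (0.34) for TAZi under TAM and 0 members for YAPi under TAM, and edgeR also called 0 members for YAPi. The YAPi and TAZi comparisons share their Ctrli libraries, also with those of STAT3i and JUNBi.

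For LATS2, AMOTL2 and AJUBA the intervals bounded the average change over both treatments, not the effect under 1 treatment. Under ETH LATS2 had 283 and 246 counts in Ctrli, 293 and 312 in YAPi and 309 and 369 in TAZi. Under TAM LATS2 had 492 and 487 in Ctrli, but 427 and 422 in YAPi and 415 and 392 in TAZi. These opposite directions cancel in the average. Over both treatments the log2 fold change after YAPi was -0.01 for LATS2 (95% interval -0.25 to 0.22), 0.10 for AMOTL2 (-0.07 to 0.27) and -0.15 for AJUBA (-0.35 to 0.04). After TAZi it was 0.04 for LATS2 (-0.27 to 0.34) and 0.22 for AMOTL2 (-0.03 to 0.48). AJUBA, by contrast, rose by 0.45 (0.29 to 0.61, adjusted p 2.2e-06), and the call held without each of the 8 libraries in turn (0.41 to 0.49).

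AJUBA counts after TAZi were 1758 and 1868 in ETH, above the 1269 and 1242 of Ctrli, and 660 and 682 in TAM, above 544 and 518. The groups did not overlap under either treatment. The change was called under ETH (0.52, SE 0.13, adjusted p 0.001), where it lost the call without any of the 4 libraries (0.48 to 0.55) and with edgeR (adjusted p 0.01), and not under TAM (0.34, adjusted p 0.29). The difference between the effects under the 2 treatments was not called (TAM minus ETH -0.21, 95% interval -0.56 to 0.15). YAPi and TAZi differed for AJUBA under ETH by -0.59 (SE 0.14, adjusted p 0.0016, background 4.25%), with no call when any of the 4 libraries was left out (-0.66 to -0.50) or with edgeR (adjusted p 0.029). Under TAM the difference was -0.58 with an adjusted p of 0.011, so that no member was called there (6.13%). AMOTL2 in TAZi under ETH had 1744 and 2222 counts against 1380 and 1406 in Ctrli (0.50, SE 0.14, adjusted p 0.0084). That call ended without 3 of the 4 libraries (0.32 to 0.65), namely either Ctrli library or replicate 2 of TAZi, and offsets for effective length gave 0.23 (adjusted p 0.44). The TAM minus ETH difference of the TAZi effect on AMOTL2 was -0.60 (adjusted p 0.033) and no member passed that test (1.6%), nor for YAPi (0.498%).

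STAT3i raised AJUBA under TAM, and JUNBi raised SAV1 under both treatments, in comparisons where 8.22% (STAT3i, TAM), 6.9% (JUNBi, TAM), 0.189% (STAT3i, ETH) and 2.8% (JUNBi, ETH) of genes were called. Each was the only member called in its comparison, of 9 tested under TAM and 10 under ETH, and STAT3i under ETH called none. Over both treatments STAT3i called SAV1 (background 5.07%) and JUNBi called SAV1 and AMOTL1 (11%). Effective length fell short of gene length by 49.0 bases in all ER-Src libraries of STAT3i and JUNBi and by 49.5 bases in the others, so what lies behind that difference cannot be told apart from these 2 knockdowns.

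AJUBA under TAM had 544 and 518 normalised counts in Ctrli and 936 and 1049 in STAT3i, which are close to the ETH values of STAT3i (1055 and 1268). The rise was 0.92 on the log2 scale (SE 0.17, adjusted p 2.1e-06), and without replicate 2 of STAT3i under TAM it was no longer called (0.87 to 1.0 over the libraries left out). Under ETH STAT3i left AJUBA at -0.10. The difference between the 2 effects was itself called (TAM minus ETH 1.00, SE 0.23, 95% interval 0.55 to 1.46, adjusted p 0.0018, background 1.34%). It lost the call with edgeR (adjusted p 0.038) and without any of 5 of the 8 libraries, namely all 4 of Ctrli and replicate 2 of STAT3i under TAM (0.88 to 1.15). No member passed the same test for JUNBi (0.288%).

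SAV1 (ENSG00000151748.14, chr14:50632058-50668306, minus strand), the scaffold that links MST to LATS, had 293 and 273 counts in Ctrli ETH and 686 and 611 in JUNBi ETH. Under TAM the values were 320 and 336 in Ctrli and 616 and 475 in JUNBi, without overlap in either treatment. SAV1 rose by 1.18 under ETH (SE 0.27, adjusted p 0.001), with the call lost without either Ctrli library (1.09 to 1.27) and with edgeR (adjusted p 0.06), and by 0.76 under TAM (SE 0.22, adjusted p 0.0086), with the call lost without any of the 4 libraries (0.56 to 0.94) and with effective length offsets (0.56, adjusted p 0.098). Over both treatments it rose by 0.97 (SE 0.16, adjusted p 6.5e-08), and that call held without each of the 8 libraries (0.90 to 1.08). SAV1 also had higher counts in STAT3i, at 358 and 402 under ETH and 418 and 453 under TAM (0.42 over both, SE 0.12, adjusted p 0.0076), but the call was lost without any of the 8 libraries (0.39 to 0.45) and with edgeR (adjusted p 0.044). TAZi gave 0.39 with an adjusted p of 0.010 and was not called. AMOTL1 in JUNBi was lower, at 1125 and 1181 under ETH and 950 and 925 under TAM (-0.35, SE 0.09, adjusted p 0.0018). It lost that call without 7 of the 8 libraries, all but replicate 2 of JUNBi ETH (-0.37 to -0.33). LATS2 in JUNBi stood at 0.56 over both treatments and at 0.90 under ETH, with adjusted p of 0.011 and 0.049. SAV1 overlaps ATL1 and LATS2 overlaps LATS2-AS1 on the opposite strand, and LATS1, STK3, STK4 and AMOTL1 also have such partners. Since no strand setting is given in the sources used here, reads of these partners cannot be told apart by strand. RSEM's largest posterior SD of the count in any library was 0.0 reads for LATS2, 0.1 for STK3, 7.0 for SAV1 and 10.7 for AMOTL1.

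**Figure D3:**
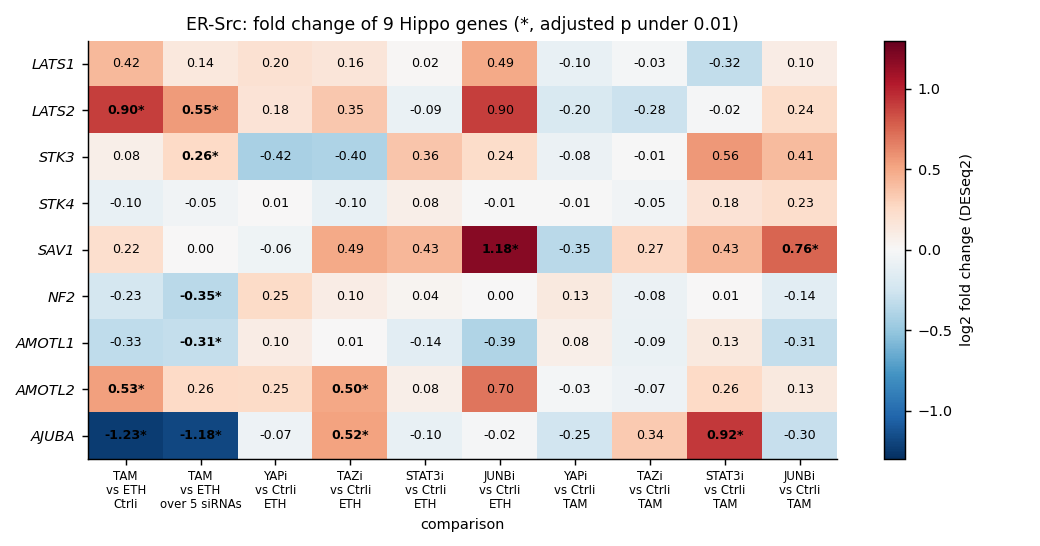
DESeq2 log2 fold changes of 9 genes (AMOT left out for its low counts) in 10 ER-Src comparisons, red for higher and blue for lower in the first-named group, with an asterisk for an adjusted p under 0.01. The YAPi columns hold no asterisk, AJUBA holds the lowest value (-1.23, TAM against ETH in Ctrli) and SAV1 the highest (1.18, JUNBi under ETH).

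In MDA-MB-231 the 4 knockdowns of set 1 could be compared with each other, free of the difference in library type. Here AMOTL2 was lower in the combined knockdown YAPi_TAZi, and in TEADi, than in YAPi or TAZi. It had 442 and 338 normalised counts in YAPi and 626 and 532 in TAZi, but 161 and 157 in YAPi_TAZi and 168 and 151 in TEADi. All 4 libraries of YAPi_TAZi and TEADi lay below all 4 of the single knockdowns, in replicate 1 as well as in replicate 2. In replicate 2 by itself, where KRT5 was at 0, AMOTL2 stood at 338 and 532 in the single knockdowns against 157 in YAPi_TAZi and 151 in TEADi. Raw expected counts behind these values were 79 to 517 reads.

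The AMOTL2 differences were -1.29 for YAPi_TAZi against YAPi (SE 0.21, adjusted p 7.9e-08) and -1.87 against TAZi (SE 0.21, adjusted p 1.4e-16). For TEADi they were -1.29 against YAPi (SE 0.21, adjusted p 5.6e-08) and -1.87 against TAZi (SE 0.21, adjusted p 7.2e-17). With the replicate number, which follows the shortfall in effective length, as a block, the same 4 differences were -1.27, -1.86, -1.28 and -1.86, all called. They were also called without each of the 8 libraries, between -1.48 and -1.09 against YAPi and between -1.98 and -1.75 against TAZi. YAPi_TAZi and TEADi did not separate, with a difference of 0.00 and a 95% interval of -0.44 to 0.45. Between the single knockdowns, AMOTL2 was lower in YAPi than in TAZi by 0.58 on the log2 scale, a difference called with the block (adjusted p 0.00085) and not without it (0.057).

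Shares of called members and genes are given for each pair, without the block and then with it. YAPi_TAZi against YAPi called 1 and 3 of 9 members (7.46% and 11.5% of all genes), and against TAZi 3 and 4 of 9 (6.8% and 10.6%). TEADi against YAPi called 1 of 9 in both fits (7.12% and 10.5%), as it did against TAZi (7.96% and 12.4%). TEADi against YAPi_TAZi called 0 of 9 members in both (4.97% and 8.42%), and YAPi against TAZi called 0 of 9 and 1 of 8 (2.4% and 6.02%). AMOT had 0 reads in all these libraries and was not tested. All calls were of lower values in the first-named group.

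AJUBA was lowest in YAPi_TAZi, at 283 and 237 counts, against 407 and 361 in YAPi, 502 and 452 in TAZi and 367 and 355 in TEADi. Both YAPi_TAZi libraries lay below the other 6. Against TAZi it differed by -0.89 (SE 0.18, adjusted p 4.8e-05, and 2.1e-08 with the block), and the call was lost without either TAZi library or without replicate 2 of YAPi_TAZi (-1.01 to -0.75). Against YAPi it differed by -0.57 (adjusted p 0.023, and 0.0012 with the block). AJUBA in TEADi gave no call against any other knockdown. It differed from YAPi by -0.09 (95% interval -0.44 to 0.26), from TAZi by -0.40 (adjusted p 0.13, and 0.02 with the block) and from YAPi_TAZi by 0.48 (adjusted p 0.10, and 0.012 with the block).

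By counts LATS2 was likewise lowest in YAPi_TAZi, at 87.7 and 68.7, against 157 and 140 in YAPi, 141 and 136 in TAZi and 117 and 123 in TEADi. The difference was -0.94 from YAPi (adjusted p 0.013, and 0.003 with the block) and -0.85 from TAZi (0.034, and 0.0094 with the block). These rest on 43 to 132 reads per library. In TPM, YAPi_TAZi was lowest in replicate 2 (3.17, against 6.34 in YAPi, 6.62 in TAZi and 5.9 in TEADi). In replicate 1 it was highest (4.69, against 4.17, 3.61 and 2.94). The effective length of LATS2 in replicate 1 was 3088 bases in YAPi_TAZi and 5463 in the other knockdowns. SAV1 had 67.3 and 73.0 counts in YAPi_TAZi, 131 and 86.3 in YAPi, 148 and 173 in TAZi, and 122 and 132 in TEADi. It was lower in YAPi_TAZi than in TAZi by 1.20 on the log2 scale (SE 0.31, adjusted p 0.0016). The SAV1 call was lost without 5 of the 8 libraries, both of TAZi, both of YAPi_TAZi and replicate 1 of TEADi (-1.31 to -1.08), with TMM size factors (adjusted p 0.022) and with effective length offsets (-0.96, adjusted p 0.17).

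LATS1, STK3, STK4, NF2 and AMOTL1 gave no call in any of the 6 pairs. STK3 and NF2 were sparse, at 24 to 88 and 8 to 24 reads per library, so that a change in them was hard to detect at this depth. AMOTL1 had 297 to 420 normalised counts and LATS1 80.1 to 120.

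**Figure D4:**
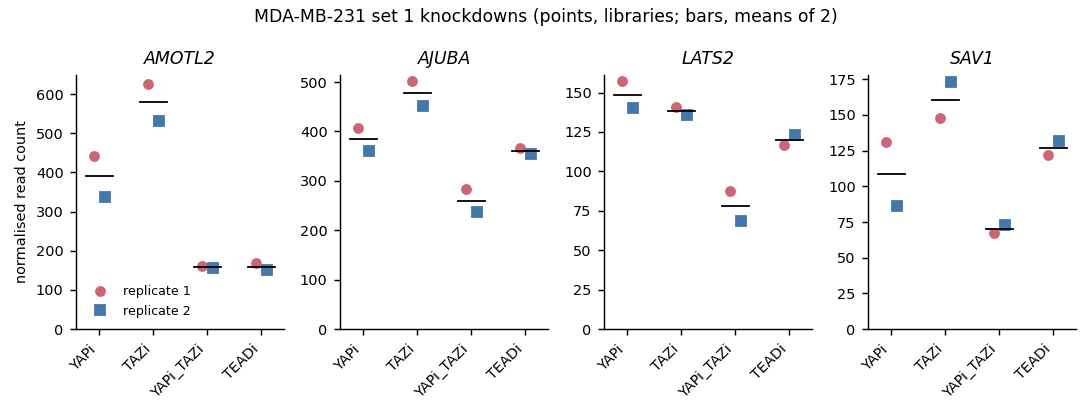
Normalised read counts of AMOTL2, AJUBA, LATS2 and SAV1 in the 8 knockdown libraries of MDA-MB-231 set 1, circles for replicate 1, squares for replicate 2 and bars for the mean of 2. AMOTL2 is low in both YAPi_TAZi and TEADi (151 to 168 counts), while AJUBA, LATS2 and SAV1 are lowest in YAPi_TAZi.

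Against the Ctrli of set 1 the directions depended on the scale and the controls. By counts, YAPi called LATS2 (1.13), AMOTL1 (0.49) and AMOTL2 (0.65) as higher, 3 of 10 members where 24.4% of genes were called. TAZi called 7 of 10 (32.8%): LATS1 (0.74), LATS2 (1.01), STK4 (0.58), AMOTL1 (0.31), AMOTL2 (1.20) and AJUBA (0.49) higher and AMOT lower. YAPi_TAZi called SAV1 (-1.02), AMOTL2 (-0.66) and AJUBA (-0.39) as lower, 3 of 10 (35.5%), and TEADi called LATS2 (0.80) as higher and AMOTL2 (-0.66) as lower, 2 of 10 (27.5%). Of these 15 calls, only that of AMOTL2 in TAZi held without each library in turn (1.05 to 1.27). Leaving out Ctrli replicate 1 or Ctrli replicate 2 ended each of the other 14, and 0 of the 15 were called when the Ctrli libraries of both sets served as controls.

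On the TPM scale, members called higher in the single knockdowns were not higher. For YAPi, LATS2, AMOTL1 and AMOTL2 were all below both Ctrli libraries. For TAZi, LATS2, STK4, AMOTL1 and AJUBA were below them too, whereas LATS1 overlapped, and so did AMOTL2, at 22.8 and 36.7 TPM in TAZi. AMOTL2 was at 35.7 and 30.9 TPM in Ctrli against 15.0 and 21.6 in YAPi, although its normalised counts were 255 and 235 against 442 and 338. LATS2 was at 7.29 and 6.74 TPM in Ctrli and at 4.17 and 6.34 in YAPi, with 69.1 and 65.1 against 157 and 140 normalised counts. Since library type moves with every knockdown here, these values are a description. The comparison among the knockdowns is free of that difference in library type, though not of differences in effective length.

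AMOT, the founding angiomotin, was seen in the Ctrli of set 1 alone among the MDA-MB-231 libraries at more than 3 reads. It had 42 and 32 reads in the Ctrli libraries of set 1 and 0 reads in each of the 8 knockdown libraries, whose reads sum to 16280159. Taking 3 reads over those 8 libraries as the limit that a count of 0 allows, counting error only, AMOT was at least 14.9-fold lower as a share of reads, and at least 3.17-fold to 4.12-fold lower in any 1 knockdown. In set 2 it had 1 and 0 reads in Ctrli and 0 to 3 in the knockdowns, so that the other Ctrli libraries of the same line were near 0 too.

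In set 2 none of the members was called. JUNBi called 3.41% of the 7966 genes that received an adjusted p, 5 of them members, with the lowest adjusted p at AMOTL2 (0.71, 95% interval 0.08 to 1.33, adjusted p 0.16). Its counts were 269 and 161 in Ctrli and 336 and 364 in JUNBi, without overlap. STAT3i called 0.497% of 2013 genes, and none of the members received an adjusted p after DESeq2's filter on low counts. At an unadjusted p under 0.05, 2166 genes passed for JUNBi and 691 for STAT3i, and edgeR also called 0 members. AJUBA, which rose after STAT3i in ER-Src under TAM, stood at 368 and 231 counts in Ctrli and 363 and 412 in STAT3i here (0.37, 95% interval -0.24 to 0.97), and SAV1, which rose after JUNBi in ER-Src, at 161 and 191 in Ctrli and 211 and 146 in JUNBi (0.03, -0.67 to 0.73). Whether the effects differ between the cell lines was not tested.

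Ratios within a family compare paralogues inside 1 library, whatever its depth, as log2 ratios of TPM + 0.1. Under TAM the balance moved to LATS2 over LATS1, to STK3 over STK4 and to AMOTL2 over AMOTL1. The LATS2 to LATS1 ratio had a median of 0.15 over the 10 ETH libraries (-0.57 to 0.80) and of 0.52 over the 10 TAM libraries (0.19 to 0.76). The mean difference within siRNAs was 0.40 (exact two-sided permutation test within siRNAs, p 0.00772, adjusted over 4 ratios 0.0103). STK3 to STK4 differed by 0.32 (permutation p 0.000514, adjusted 0.00206), from a median of 0.00 to 0.28, and AMOTL2 to AMOTL1 by 0.57 (permutation p 0.00154, adjusted 0.00309), from 0.92 to 1.55. Each of the 3 was higher under TAM in 5 of 5 siRNAs, and the smallest p the 7776 relabelings allow is 0.000257. The ranges of ETH and TAM overlapped in all 3. The mean effective length of STK4 went from 3984 bases in ETH to 4826 in TAM for Ctrli, and from 5275 to 5992 for YAPi. In these, STK4 had log2 ratios of TAM to ETH of -0.11 and -0.15 by counts but -0.56 and -0.5 by TPM. For TAZi, STAT3i and JUNBi the STK4 effective length was shorter under TAM. The part of effective length in the STK3 to STK4 ratio was not tested. In Ctrli, on the TPM scale, the AMOTL2 to AMOTL1 ratio moved with AMOTL1. AMOTL1 was at 11.2 and 9.44 TPM under ETH and 5.94 and 4.82 TPM under TAM, while AMOTL2 stayed between 17.3 and 18.4 TPM. By counts both genes moved in Ctrli, with log2 ratios of the means of -0.34 for AMOTL1 and 0.52 for AMOTL2. The mean effective length of AMOTL1 was 5200 bases in Ctrli ETH and 6980 in Ctrli TAM. Its part in this ratio was not tested. In set 1 of MDA-MB-231 the same ratio was 1.04 to 1.99 in the 4 libraries of YAPi and TAZi and 0.07 to 0.29 in those of YAPi_TAZi and TEADi, without overlap. AMOTL2 to AMOT differed by -0.32 (permutation p 0.0597) and was higher under TAM in 1 of 5 siRNAs, a value that rests on fewer than 25 AMOT reads per library and passed the threshold with a pseudocount of 0.01 (-0.94, permutation p 0.01).

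**Figure D5:**
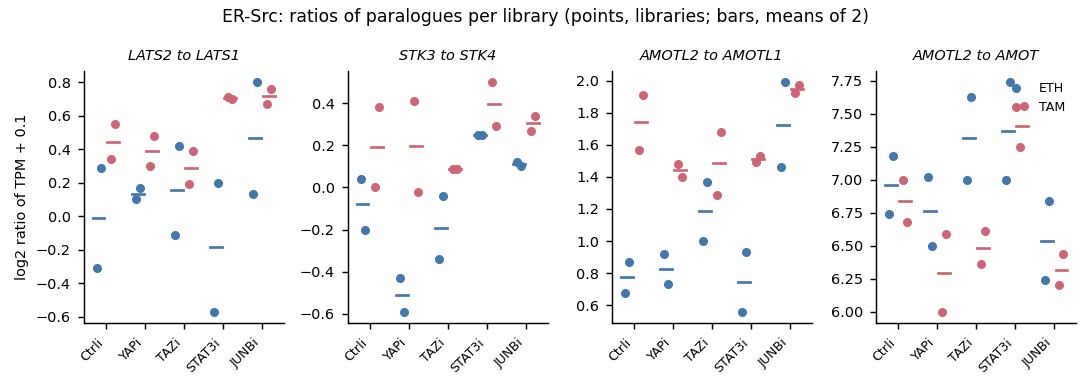
Log2 ratios of TPM + 0.1 for 4 pairs of paralogues in each ER-Src library, by siRNA, blue for ETH and red for TAM, with bars at the mean of 2. The means under TAM lie above those under ETH for LATS2 to LATS1, STK3 to STK4 and AMOTL2 to AMOTL1 in all 5 siRNAs.

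The genes whose log2(TPM + 1) followed a member most closely over the 20 ER-Src libraries were sought among 6956 genes with a mean TPM of at least 5. For AJUBA they were KANK1 (Pearson r 0.96), CAV1 (0.94) and TSC22D3 (0.94). For LATS2 they were STAT2 (0.87), TAGLN (0.84) and PROS1 (0.80), and for AMOTL2 they were MARCKS (0.84), GOLPH3 (0.83) and FBLN1 (0.83). The 20 libraries share treatment and siRNA groups, so these values describe likeness across the same 10 conditions.

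A further 58 genes of the pathway (upstream kinases, apical scaffolds, the STRIPAK phosphatase complex, polarity proteins and others) give the setting of the 10. With TAM in Ctrli, 6 of 53 tested were higher and 1 lower (13.2%, against 6.21% of all genes): WWC1 (2.62), VGLL4 (1.69), STRIP2 (1.57), MINK1 (1.40), RASSF5 (1.05), MAP4K4 (0.52) and FAT4 (-0.67). WWC1, or KIBRA, is a scaffold that works with NF2, and VGLL4 competes with YAP for TEAD. These 7 are named because all that were called are given, with their values already seen. Over the 5 siRNAs 8 of 56 were higher and 2 lower (17.9%, against 12.6%). WWC1 was also the only gene of the list for which the STAT3i effect differed between treatments (TAM minus ETH -1.78, adjusted p 3.3e-14). Under TAM 1 was called for YAPi (1.89%, against 10.7% of all genes) and 0 for TAZi (against 3.42%). For STAT3i 6 were higher and 5 lower (20.8%, against 8.22%), and for JUNBi 2 were higher and 3 lower (9.43%, against 6.9%). The polarity proteins PALS1 (0.92 in STAT3i, 0.89 in JUNBi) and DLG5 (0.63 in both) rose in both of these. The kinases MINK1 (-1.16 and -0.74) and CSNK1E (-0.73 and -0.55) fell in both. STAT3i and JUNBi share their Ctrli libraries, and JUNB was lower than Ctrli in both under TAM. Under ETH 2 of the list were called for YAPi and 2 for TAZi (3.77% each, against 11.6% and 5.24%), 0 for STAT3i (against 0.189%) and 1 for JUNBi (1.89%, against 2.8%). Over both treatments YAPi called 8 higher and 6 lower of 54 (25.9%, against 23.4% of all genes), TAZi 1 and 3 of 53 (7.55%, against 9.16%), STAT3i 2 and 2 (7.55%, against 5.07%) and JUNBi 4 and 3 (13.2%, against 11%). The kinase TAOK3 fell in YAPi (-0.39), TAZi (-0.34) and JUNBi (-0.44), and DLG3 fell in YAPi and TAZi (-0.48 in each). DLG5 rose in TAZi (0.51) and JUNBi (0.68), PALS1 rose in STAT3i (0.62) and JUNBi (0.96), and STRIP2, of the STRIPAK complex, fell in STAT3i (-0.73) and JUNBi (-0.51).

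Among the set 1 knockdowns of MDA-MB-231, 4 to 9 of the 50 tested genes of the list were called in each pair without the block (8% to 18%, against 2.4% to 7.96% of all genes) and 7 to 14 with it (14.3% to 28%, against 6.02% to 12.4%). FRMD6, a FERM scaffold that acts upstream of the MST kinases, had the directions of AMOTL2: it was lower in YAPi_TAZi than in YAPi (-1.33) and TAZi (-1.61), and lower in TEADi than in YAPi (-1.04) and TAZi (-1.32). MAP4K4, a kinase that can activate LATS, went the other way in the same 4 pairs (0.64, 0.74, 0.82 and 0.92). Against YAPi and TAZi in turn, YAPi_TAZi also had lower WWC1 (-1.46 and -1.53) and higher VGLL4 (0.82 and 1.13), and TEADi had higher DLG1 (0.99 and 0.69) and lower MOB1A (-0.67 and -0.71), a LATS co-activator. The 4 pairs share libraries. Against Ctrli, where library type moves too, 24 to 35 genes of the list were called in each knockdown, or 44.4% to 61.4% of those tested, against 24.4% to 35.5% of all genes. In set 2, ZYX was the only gene of the list called (JUNBi, -0.71).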

How the data were processed

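Groups and replicate numbers came from the sample titles. The authors made libraries with a TruSeq Ribo Profile kit, and used STAR and RSEM with GENCODE version 30 on hg38. The tables they deposited hold expected counts, which are estimated reads per gene and need not be whole, and TPM, scaled by effective length and library total. Symbols and coordinates were taken from GENCODE version 44 (GRCh38), and 93.1% of 60725 Ensembl identifiers matched. The 10 members and all lists were chosen with earlier results of these data known.

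Expected counts were rounded and tested over all genes with DESeq2 1.42.0 (Wald test, default filtering), in a separate run per comparison as in the methods of the study. The 6 pairs of set 1 knockdowns were contrasts of 1 fit, also run with a block for the replicate number. The DESeq2 and edgeR fits of some comparisons were tested on simulated data, and the other settings and the ratios were not. DESeq2 chose a local dispersion trend for these pairs and for YAPi_TAZi against Ctrli. Ratios used TPM + 0.1 and exact permutation within siRNAs. RSEM's own posterior SD of a member's count was at most 10.7 reads. Alternatives were edgeR 4.0.16, TMM size factors, a mean count of at least 10, effective length offsets, 1 fit per line or set, the block, Ctrli of both sets, other pseudocounts and leaving out each library. Values per library are printed for members called at least once, other pathway genes by counts and those called 1 way in 2 or more knockdowns, and the 3 genes most like each of 3 members.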

Additional observations from a re-analysis of the deposited data

Results flagged for a closer look

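The effect of STAT3i on AJUBA differed between the treatments. It stood at 0.92 on the log2 scale under TAM and at -0.10 under ETH, and the difference of the 2, tested as an interaction term in DESeq2, was 1.00 (SE 0.23, adjusted p 0.0018), with both STAT3i libraries above both Ctrli libraries under TAM. It kept its direction in every alternative run and lost the call with edgeR (1.02, adjusted p 0.038) and without any of 5 of the 8 libraries, namely all 4 of Ctrli and replicate 2 of STAT3i under TAM (0.88 to 1.15).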

How the results depend on the processing

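The 40 calls of a member in a comparison were recomputed 534 times under the alternatives: 348 values stayed past the threshold in the same direction, 183 kept the direction only, and 3 reversed. The 3 reversed with the Ctrli libraries of both sets, namely AMOTL2 in YAPi_TAZi (0.00) and TEADi (0.01) and AJUBA in YAPi_TAZi (0.27). The cause was not tested.

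The count of called members in each comparison is given with the alternatives that moved it by over 1.5 times. For TAM against ETH in Ctrli the count was 3, with 1 under the replicate block and 1 to 1 without 1 library. Over the 5 siRNAs it was 5 (4 to 6 without 1 library). For the 4 knockdowns under TAM it was 2, with 1 by edgeR, by offsets and by the block (1 to 2 without 1 library). Under ETH it was 3, with 0 by edgeR and 1 by offsets and by the block (0 to 5). Over both treatments it was 4, with 2 by edgeR and by offsets (2 to 4). For the interactions it was 1, with 0 by edgeR (0 to 2). For YAPi against TAZi it was 1, with 3 in 1 fit over all groups, 0 by edgeR and 2 with the mean count filter (0 to 1). For set 1 against Ctrli it was 15, with 8 by TMM, 9 by offsets, 4 by the block and 0 with both sets of Ctrli (1 to 15). For the 6 pairs in set 1 it was 6, with 10 by the block (4 to 6). In set 2 it was 0 in every alternative run, 0 to 0 without 1 library included. The ratios ran from 0.32 to 0.47 (LATS2 to LATS1), 0.28 to 0.36 (STK3 to STK4), 0.52 to 0.62 (AMOTL2 to AMOTL1) and -0.39 to -0.24 (AMOTL2 to AMOT) without 1 library. AMOTL2 to AMOT passed the threshold with a pseudocount of 0.01 (-0.94) and with expected counts per kilobase (-1.0).

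Libraries with the same number deviated together among the set 1 knockdowns (correlation over genes 0.574 to 0.66), not with their Ctrli (-0.056 to -0.039), and unevenly between ER-Src groups (-0.415 to 0.631). Between TAM and ETH of 1 siRNA the correlation was 0.131 to 0.612 in all 5, a hint of pairing from the data with 2 numbers per group, and the block ended the calls of LATS2 and AMOTL2 in Ctrli. No paired analysis was possible for the knockdowns against Ctrli in set 2 because the Ctrli libraries are numbered 3 and 4 and the knockdowns 1 and 2. Depth limits set 1 most: its knockdowns held 1411304 to 2784605 reads.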
